A study of Mus musculus with 6 samples.

Results

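The MHC class II antigen presentation genes were followed in monocytes that had entered the central nervous system (CNS) of mice with EAE, the mouse model of multiple sclerosis. The 10 genes were chosen by name for their function, by a rule that uses no measured value, although earlier results of these data were known: the classical chains H2-Aa, H2-Ab1 and H2-Eb1, the invariant chain Cd74, the peptide editors H2-DMa, H2-DMb1 and H2-DMb2, their modulators H2-Oa and H2-Ob, and the transactivator Ciita. The files listed 54232 genes, of which 11254 had enough counts to be tested, among them 9 of the 10 class II genes. H2-Ob was below the count filter and is given by its counts alone.

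RNA-seq had been done on 3 WT and 3 Ifnar1-/- monocyte libraries, to ask which genes respond when a monocyte can sense type I IFN itself. Irradiated GFP+ mice had received a 1:1 mixture of bone marrow from WT donors carrying CD45.1 and Ifnar1-/- donors carrying CD45.2. After 6 to 7 weeks they were immunized with MOG peptide in CFA with pertussis toxin, and all were given 30000 IU of IFN-β daily. At disease peak, GFP- CD45+ CD11b+ Ly6Chi Ly6G- cells were sorted from the CNS. The knockout is of the whole animal, so all cells descended from Ifnar1-/- marrow lack this chain of the type I IFN receptor, and both kinds of cell had been exposed to the same cytokine and disease. No group without IFN-β was compared here, so the contrast is of receptor genotype under treatment. Donor genotype and CD45 allotype cannot be told apart, and sex and age were not given in the sources used here. Each recipient held cells of both genotypes, so a WT and an Ifnar1-/- library can come from the same mouse. Whether same-numbered WT and Ifnar1-/- libraries came from the same recipients was not stated. The main tests therefore treated all libraries as independent, which does not hold where libraries share a recipient. Their p-values measure the spread between these libraries.

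Values are given below in the order of libraries 1, 2 and 3 of each genotype. The libraries held between 4531782 and 7321380 expected counts. Ifnar1 itself was at 153, 126 and 111 normalized CPM in the WT and at 109.9, 102 and 109 in the Ifnar1-/- libraries. Reads from parts of the gene outside a disrupted segment still count, so this total cannot check the labels. All 8 monocyte markers were detected, and their summed level was between 8156 and 9886 normalized CPM. Ly6c2, which encodes an antigen read by the Ly6C sort, was higher in WT cells (718 ± 74.6 against 271 ± 83.9 normalized CPM, SD, n = 3, edgeR quasi-likelihood test, Benjamini-Hochberg adjusted p = 0.00957), so the sorted populations were not equal in a sort marker. Of the 8 monocyte markers, 5 were above and 3 below 0 in log2 fold change (WT over Ifnar1-/-). Ccr2 went the other way from Ly6c2, at 643 ± 53.7 against 989 ± 248 normalized CPM (log2 fold change -0.62, edgeR adjusted p = 0.143). Its groups did not overlap, as for 23.4% of all tested genes in either direction. In bulk samples, fewer cells of a type and less RNA per cell cannot be told apart.

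MHC class II molecules are pairs of an α and a β chain that display peptides from endocytosed proteins to CD4+ T cells. New pairs assemble on the invariant chain in the endoplasmic reticulum, travel to endosomes where proteases trim it, and exchange the remaining fragment for peptide with the help of H2-DM, which H2-O restrains. Class II genes are switched on together by CIITA, a coactivator that IFN-γ induces and that docks on RFX, CREB and NF-Y proteins bound to the X and Y boxes of their promoters. In inflamed CNS, monocytes that acquire class II can re-stimulate T cells that have crossed the blood-brain barrier.

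The promoter stretch on which these factors assemble is shown because Ciita acts through it and most of the searched members hold it. RefSeq start sites on GRCm38.p6 were given for 7 of the 10 genes, with 8 start sites in all, and the 250 bases before each were searched. Each line runs 5′ to 3′ on the strand of the gene, from 15 bases before the X2 core to the end of the Y box core. Capitals mark the X2 core (TGACG, or ATGATG) and the Y box core (GATTGG, to which NF-Y binds).
H2-Aa: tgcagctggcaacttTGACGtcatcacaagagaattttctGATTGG
H2-Eb1: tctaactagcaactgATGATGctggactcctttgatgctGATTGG
H2-DMb2: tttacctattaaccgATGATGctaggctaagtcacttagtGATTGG
H2-Ob: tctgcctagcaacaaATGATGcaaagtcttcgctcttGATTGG
The H2-Aa stretch lies at chr17:34287867-34287912 on the minus strand, and the plus strand holds those of H2-Eb1 (chr17:34305768-34305812), H2-DMb2 (chr17:34145118-34145163) and H2-Ob (chr17:34238810-34238852). They fall in no annotated exon. The cores were 20, 18, 19 and 16 bases apart in H2-Aa, H2-Eb1, H2-DMb2 and H2-Ob. H2-DMb1 had the same arrangement with 19 bases between the cores, but there the annotation places it in an exon and it is not printed.

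An X2 core followed after 5 to 40 bases by a Y box core on the strand of the gene was thus present in 5 of 7 class II genes, against 1 of 14 class I presentation genes with a start site (B2m) and 0.25% of 32851 windows of the same length. The letters and spacing were chosen after the member sequences had been read, so these counts describe the sequences and test nothing. Taken alone on either strand, GATTGG was in at least 1 window of all 7 class II genes and in 14.6% of windows, TGACG in 1 gene and 17.8% of windows, and ATGATG in 4 genes and 9.39% of windows. GAAANNGAA, the core of the IFN-stimulated response element, was in 0 of the 7 class II genes, 2 of 14 class I genes and 7.13% of windows. These letters were searched only in this window.

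The whole 250 bases before H2-Eb1 (chr17:34305617-34305866, plus strand) are given as context, with the same capitals.
H2-Eb1: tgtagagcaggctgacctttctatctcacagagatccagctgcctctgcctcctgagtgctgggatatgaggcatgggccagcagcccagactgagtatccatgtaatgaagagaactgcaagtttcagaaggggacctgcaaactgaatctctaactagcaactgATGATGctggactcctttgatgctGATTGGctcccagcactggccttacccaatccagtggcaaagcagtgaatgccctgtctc

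On a per-length scale (TPM), class II transcripts of monocytes of both genotypes formed a steep order from the invariant chain to H2-O. Cd74 had 583 to 2195 TPM over the 6 libraries, which placed it between rank 15 and rank 112 of 21983 protein-coding genes. H2-Ab1 had 560.4 to 1511, H2-Aa 365 to 873 and H2-Eb1 172 to 538. H2-DMa followed with 84.0 to 185, H2-DMb1 with 46.7 to 105, Ciita with 10.8 to 22.9, H2-DMb2 with 6.57 to 14.6, H2-Oa with 1.6 to 5.87 and H2-Ob with 0.53 to 1.48 TPM. Within each of the 6 libraries every gene of this order was above the next. Across libraries, the ranges of TPM of neighbours in the order separated only between H2-DMb1 and Ciita, between H2-DMb2 and H2-Oa, and between H2-Oa and H2-Ob. Together the 10 genes took 0.303%, 0.323% and 0.536% of all TPM in the WT and 0.189%, 0.403% and 0.439% in the Ifnar1-/- libraries.

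**Figure D1:**
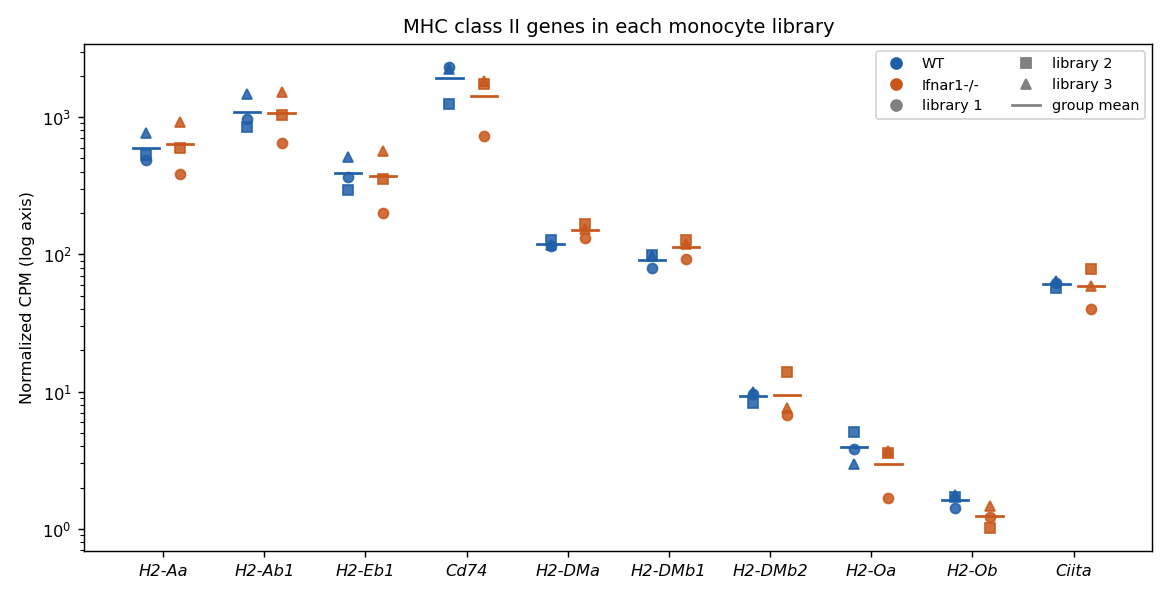
Normalized CPM (log axis) of the 10 class II genes in each library, with WT in blue and Ifnar1-/- in orange, symbols for library number and a bar for the mean of 3 libraries. The groups overlap for every tested gene other than H2-DMa, and Ifnar1-/- library 1 is the lowest of all 6 for H2-Aa, H2-Ab1, H2-Eb1, Cd74 and Ciita.

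No class II gene passed the test between WT and Ifnar1-/- monocytes. Of the 9 tested, 0 were called by edgeR (quasi-likelihood test, with a Benjamini-Hochberg adjusted p no higher than 0.05 and at least a 1.5-fold change), 1 had an unadjusted p under 0.05 (as had 17.8% of all tested genes), and 0 were called by DESeq2 or limma-voom. The background was 2.13% of all tested genes called (240 of 11254), so 0 of 9 is near what the background gives and is no result about these genes. Their log2 fold changes (WT over Ifnar1-/-) were above 0 for 5 and below 0 for 4, with a median of 0.03 beside -0.01 over all tested genes, and 5 of the 9 changed sign in at least 1 alternative setting. What the data bound is the size of each difference, given below as a 95% interval. These intervals are of the main fit, which leaves any sharing of recipients out of account. A p that misses the threshold does not show that the genotypes were alike.

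The classical chains form the peptide groove. H2-Aa encodes the I-A α chain (chr17:34282744-34287823, minus strand, GRCm38, as are all positions of genes). It was at 489.8, 526 and 764 normalized CPM in the WT and at 384, 599 and 922 in the Ifnar1-/- libraries. Library 3 was the highest of each group, Ifnar1-/- library 1 the lowest of all, and the groups overlapped. The log2 fold change was -0.10 (SE 0.29, interval -0.75 to 0.55, edgeR adjusted p = 0.902).

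H2-Ab1 encodes the β chain that pairs with it (chr17:34257689-34269419). Its levels were 962, 840.4 and 1460.2 normalized CPM in the WT and 651, 1031 and 1518 in the Ifnar1-/- libraries. As for H2-Aa, the spread inside each genotype was wider than the difference between their means (1088 ± 328 against 1067 ± 434, SD, n = 3). Its log2 fold change was 0.03 (SE 0.30, interval -0.64 to 0.70, edgeR adjusted p = 0.976).

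H2-Eb1 encodes an I-E β chain (chr17:34305867-34316674). It was at 367, 295 and 514 normalized CPM in the WT and 199, 354 and 562 in the Ifnar1-/- libraries, again with library 3 highest in each group and overlapping groups. This gave a log2 fold change of 0.08 (SE 0.33, interval -0.65 to 0.81, edgeR adjusted p = 0.936). Its partner is encoded by H2-Ea, which mice of the b haplotype such as C57BL/6 do not transcribe, and the gene, annotated as H2-Ea-ps, was listed at 0 counts in all 6 libraries, which allows up to 0.662 CPM in the shallowest. H2-Eb2, a little-expressed relative, was at 0 to 0.508 normalized CPM. I-E β transcripts were thus abundant in cells in which no transcript of an I-E α chain was detected.

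Cd74 encodes the invariant chain, which fills the groove and guides new class II molecules to endosomes. It was at 2314 normalized CPM in WT library 1, 1244 in WT library 2 and 2251 in WT library 3, against 723, 1744 and 1823 in Ifnar1-/- libraries 1, 2 and 3. WT libraries 1 and 3 lay above every Ifnar1-/- library, WT library 2 lay below Ifnar1-/- libraries 2 and 3, and Ifnar1-/- library 1 was far below the rest. The log2 fold change of 0.44 (SE 0.34, interval -0.33 to 1.202, edgeR adjusted p = 0.549) became 0.14 without Ifnar1-/- library 1 and 0.69 without WT library 2. The interval leaves room for a difference of more than 1.5-fold in favour of WT, whereas in the opposite direction it ends short of that size.

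Relative to the chains it assembles with, Cd74 gave a TPM ratio to the sum of H2-Aa, H2-Ab1 and H2-Eb1 of 1.16, 0.686 and 0.752 in the WT and 0.532, 0.805 and 0.555 in the Ifnar1-/- libraries. The groups overlapped (1.36-fold, two-sided exact permutation test, p = 0.3). With 3 libraries a group this test cannot go below 0.1. In all, 6 such ratios were computed, the 2 on Cd74 and on H2-O planned and 4 added after values had been seen, and Benjamini-Hochberg adjusted p over the 6 was 0.36 for each other than the ratio of H2-Aa to H2-Ab1, at 0.4.

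The peptide editor H2-DM is a class II-like pair that speeds the exchange of the invariant chain fragment for peptide. H2-DMa encodes its α chain (chr17:34119541-34139101). It was at 115, 127 and 117 normalized CPM in the WT and at 131, 165 and 153 in the Ifnar1-/- libraries. Every WT library was below every Ifnar1-/- library, the sole such separation among the 9 tested class II genes and one found for 23.4% of all tested genes, in either direction. The fitted log2 fold change was -0.32 (SE 0.14, interval -0.64 to -0.01), with an unadjusted p of 0.0457 and an adjusted p of 0.268 by edgeR. It stayed below 0, between -0.43 and -0.23, in all 17 alternative settings. Their adjusted p ran from 0.110 to 0.731 by edgeR, DESeq2 or limma-voom. The setting that calls genes by adjusted p alone reuses the main fit, so it could not change the direction. The annotated gene overlaps Brd2 on the opposite strand by 3094 bases. Brd2 was at 161 to 327 normalized CPM, and whether counting used strand was not stated, so reads in that overlap cannot be assigned with certainty.

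H2-DMb1 encodes the main β chain of H2-DM (chr17:34153072-34160230). It was at 79.7, 98.2 and 96.5 normalized CPM in the WT and at 93.0, 127 and 119 in the Ifnar1-/- libraries. Ifnar1-/- library 1 lay just below WT libraries 2 and 3, so the groups overlapped. The difference on the log2 scale was -0.31 (SE 0.16, interval -0.66 to 0.05, edgeR adjusted p = 0.352), close to that of H2-DMa, whose chain it pairs with.

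H2-DMb2 is a near-identical neighbouring copy (chr17:34143307-34151555), and its reads can be split with H2-DMb1. It was at 9.53, 8.29 and 9.87 normalized CPM in the WT and at 6.72, 13.9 and 7.54 in the Ifnar1-/- libraries, with a log2 fold change of -0.02 (interval -0.66 to 0.62, edgeR adjusted p = 0.982). The Ifnar1-/- libraries enclosed all WT values. With both copies summed, the log2 fold change was -0.28 (SE 0.16, edgeR adjusted p = 0.398), so the way reads are divided between the copies did not change the outcome of the test.

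H2-O is the pair that binds H2-DM and holds it back, and it is best known from B cells and some dendritic cells. H2-Oa (chr17:34092340-34095234) had 27, 24 and 15 counts in WT and 11, 21 and 20 counts in Ifnar1-/- libraries 1, 2 and 3, equal to 3.84, 5.10 and 2.96 against 1.68, 3.56 and 3.68 normalized CPM. WT libraries 1 and 2 were the highest, Ifnar1-/- library 1 the lowest, and the groups overlapped. WT over Ifnar1-/-, the log2 fold change was 0.42 (SE 0.39, interval -0.45 to 1.29, edgeR adjusted p = 0.616), and it was 0.14 without Ifnar1-/- library 1. H2-Ob (chr17:34238903-34254414) had 10, 8 and 9 counts in WT and 8, 6 and 8 in Ifnar1-/- libraries, too few for the test. A difference in H2-O was not detected at these counts.

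The balance of H2-O to H2-DM was compared within each library, as the TPM of H2-Oa and H2-Ob over that of H2-DMa, H2-DMb1 and H2-DMb2. The ratio was 0.0261, 0.0305 and 0.0197 in the WT and 0.0116, 0.0146 and 0.0212 in the Ifnar1-/- libraries. The highest were WT libraries 1 and 2, and Ifnar1-/- library 3 lay above WT library 3. The WT ratio was 1.63-fold that of Ifnar1-/- cells (two-sided exact permutation test, p = 0.2). On normalized counts in place of TPM, the ratios did not overlap between genotypes (1.66-fold, exact permutation p = 0.1, the smallest this design gives). The direction was the same in the 8 alternative settings that could change it, but the numerator rests on the few counts of H2-O given above.

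**Figure D2:**
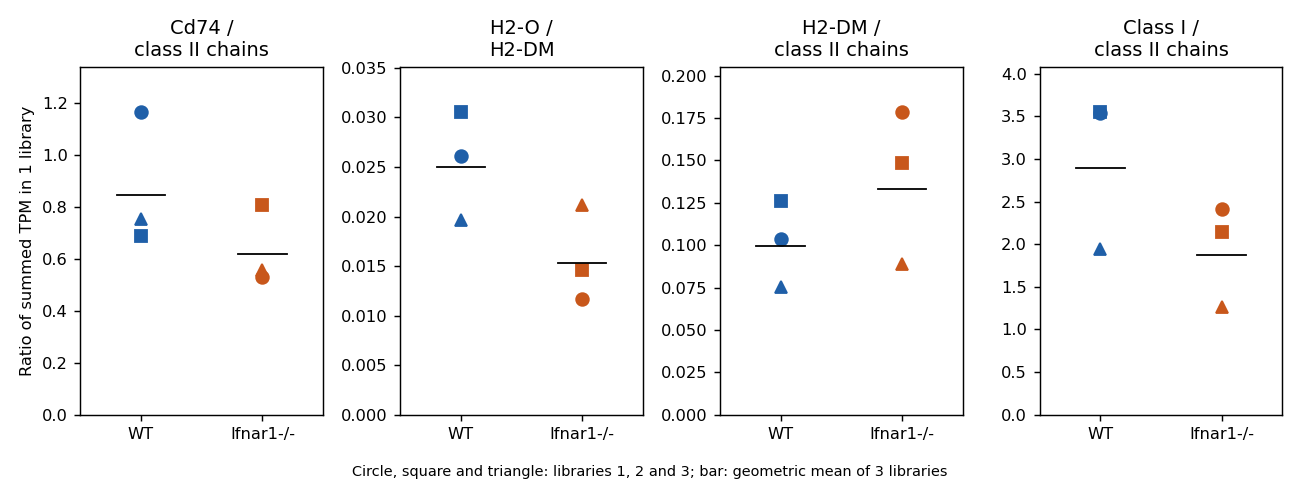
Ratios of summed TPM within each library, with WT in blue, Ifnar1-/- in orange and a bar for the geometric mean of 3 libraries. From left to right these are Cd74 to class II chains, H2-O to H2-DM, H2-DM to class II chains, and class I (H2-K1, H2-D1, B2m) to class II chains, and the groups overlap in all 4 panels.

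Ciita encodes the transactivator of class II genes (chr16:10480059-10528418). It was at 62.2, 56.7 and 63.6 normalized CPM in the WT and at 39.9, 78.1 and 58.5 in the Ifnar1-/- libraries. The WT libraries lay close together and the Ifnar1-/- libraries lay on both sides of them. Its fitted log2 fold change was 0.05 (SE 0.21, interval -0.43 to 0.53, edgeR adjusted p = 0.936). In the main fit the interval is narrower than a 1.5-fold change in either direction, which among the tested class II genes holds there for Ciita alone. Intervals were not computed in the alternative settings, where the log2 fold change of Ciita ran from -0.21 to 0.32. Ciita overlaps Dexi on the opposite strand by 25888 bases, and Dexi was at 4 to 6 normalized CPM.

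Members varied together over libraries in groups. Over the 6 libraries, Pearson's r of log2 normalized CPM was 0.967 between H2-Aa and H2-Ab1, 0.988 between H2-Ab1 and H2-Eb1 and 0.945 between H2-Aa and H2-Eb1. H2-DMa and H2-DMb1 followed each other (0.927) but followed the chains less closely (0.159 between H2-DMa and H2-Ab1). Cd74 was nearest to H2-Eb1 (0.847), and Ciita to H2-DMb2 (0.896) and Cd74 (0.801). These are descriptions over 6 libraries that also share their depth and scaling. Between the lowest and the highest library, H2-Aa spanned 2.40-fold, H2-Ab1 2.33-fold, H2-Eb1 2.82-fold and Cd74 3.20-fold, against 1.43-fold for H2-DMa.

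**Figure D3:**
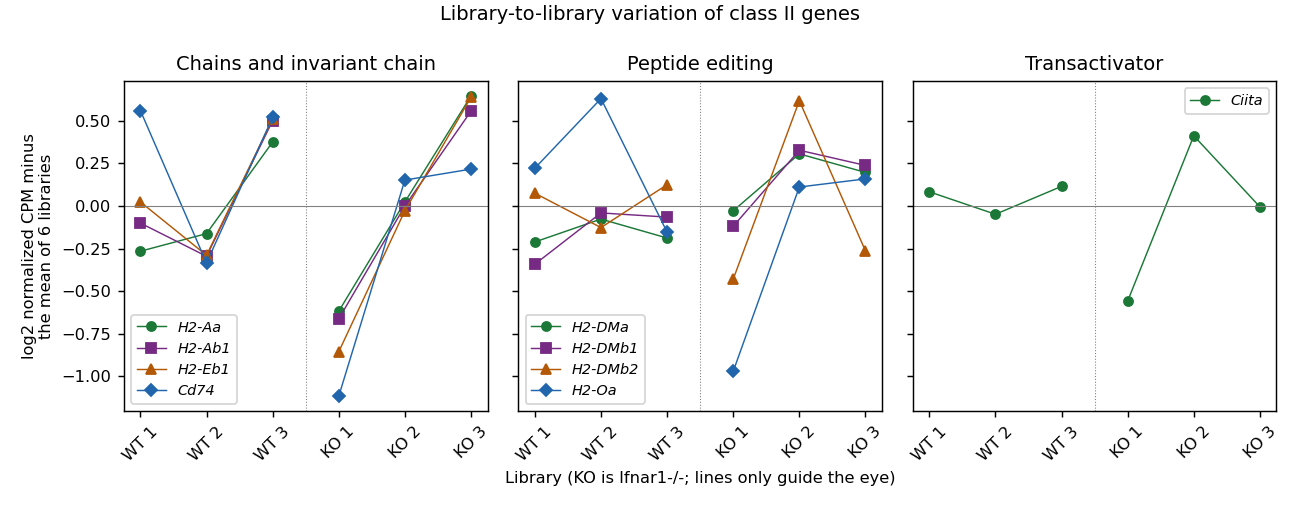
Log2 normalized CPM of class II genes in each library, less the mean of the 6 libraries, in panels for the chains and the invariant chain, for peptide editing, and for Ciita (KO stands for Ifnar1-/-). The 3 chains trace nearly the same profile, low in Ifnar1-/- library 1 and high in library 3 of both genotypes, whereas H2-DMa and H2-DMb1 trace a flatter one.

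The libraries at the ends of this range also stood apart in other ways. Ifnar1-/- library 1, lowest in chains, had the largest share of mitochondrial rRNA (22.7% of counts, against 12.3% to 19.6% in the others). WT library 3 and Ifnar1-/- library 3, highest in chains, had the highest summed level of 8 neutrophil genes (2031 and 2266 normalized CPM, against 209.9 to 832), 7 of which passed the filter, although Ly6g itself was at 0.790 and 0.736. Their part in the class II levels was not tested. Without both libraries numbered 3, a setting chosen after seeing the data, 0 of 9 class II genes were called by edgeR, as in the comparison of all 6.

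Cells that carry much class II themselves were looked for by their markers. Of 8 B cell markers, Pax5 and Fcer2a were at 0 in all libraries and Ms4a1 and Cd79a were at no more than 0.197 normalized CPM, whereas Cd22 was at 1.99 to 9.96 and Ighm at 2.88 to 9.39, and the list summed to 9.56 to 21.1 in WT and 7.63 to 14.5 in Ifnar1-/- libraries. Of 10 conventional dendritic cell markers, 6 passed the filter and the sum was 105 to 161 against 80.5 to 122, most of it Itgax (57.4 to 125), which monocytes also express. Flt3 was at 9.93 to 21.5, Zbtb46 at 0.184 to 1.85 and Cd209a at 0 to 2.75 normalized CPM. Dpp4 was at 8.68, 10.2 and 7.11 in the WT and 5.04, 4.07 and 3.31 in the Ifnar1-/- libraries (log2 fold change 1.05, edgeR adjusted p = 0.0842). Its groups did not overlap, as for 23.4% of all tested genes in either direction. Xcr1, at 0 to 0.711, was below the count filter. It had 5, 1 and 2 counts in WT and 1, 0 and 0 in Ifnar1-/- libraries, too few to compare the genotypes. The sums of 7 plasmacytoid dendritic cell markers were 55.1 to 72.1 and 37.7 to 53.9, nearly all Tcf4 (34.6 to 67.4), with Siglech, Ccr9 and Klk1 at 2.57 or less. Among microglia markers, Tmem119 was at 2.13 to 11.4, P2ry12 at 15.2 to 31.01 and Sall1 at up to 1.10.

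T cell markers summed to 21.9 to 52.5 in WT and 8.13 to 22.4 normalized CPM in Ifnar1-/- libraries, with 7 of 9 tested, all 7 above 0 in log2 fold change (median 1.52) and 0 called by edgeR, beside 2.13% of all tested genes. At an unadjusted p under 0.05 there were 6 of the 7, beside 17.8% of all tested genes. Cd3e was at 2.98 to 8.09 in WT against 0.508 to 2.75, and Cd3d and Cd3g were likewise higher in each WT library. The groups did not overlap for 4 of the 7 tested, beside 23.4% of all tested genes. Mouse T cells are not a known source of class II, and the part of any of these lists in the class II values was not tested.

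The machinery around class II molecules was read from the same fit. Of 12 genes for antigen processing and class II turnover, all 12 were tested and 0 were called by edgeR (2 at an unadjusted p under 0.05, near the 17.8% of all tested genes), with 7 above and 5 below 0 and a median log2 fold change of 0.06. Ctss, the cathepsin that trims the invariant chain in antigen-presenting cells, was at 4801, 4519 and 4936 normalized CPM in the WT and 3306, 4107 and 4419 in the Ifnar1-/- libraries, and these groups did not overlap (log2 fold change 0.27, edgeR adjusted p = 0.492). Lgmn, an asparaginyl endopeptidase of endosomes, was at 558, 382 and 330.3 against 242, 268 and 259.8 (log2 fold change 0.72, SE 0.20, edgeR adjusted p = 0.101), and every WT library was higher. Ctsb, a cathepsin of lysosomes, was at 1885, 1216 and 1325 against 961, 949 and 1038 (log2 fold change 0.59, SE 0.19, edgeR adjusted p = 0.156), also without overlap. Ctss, Lgmn and Ctsb were the 3 of the 12 genes whose groups did not overlap. Such separation was found for 23.4% of all tested genes, so 3 of 12 is near the background.

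Lgmn and Ctsb were the 2 genes of this list that DESeq2, run on all genes with a count, called. Without a low-count filter edgeR called Lgmn too. Tool and filter thus cannot be told apart in the calls by DESeq2. Ifi30, the thiol reductase of endosomes, and March1, the ubiquitin ligase that removes class II from the surface, differed by 0.09 and -0.06 on the log2 scale, with edgeR adjusted p of 0.821 and 0.898. Sppl2a, which clears the last membrane fragment of the invariant chain, was at 0.13 (edgeR adjusted p = 0.728).

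Of 15 genes for class II transcription and its inputs, all were tested and 0 were called by edgeR or DESeq2 (3 at an unadjusted p under 0.05 by edgeR, near the 17.8% of all tested genes), with 12 above and 3 below 0 and a median of 0.18. The groups did not overlap for 6 of the 15, beside 23.4% of all tested genes, with WT above for 5 and below for 1. Among the factors that bind the boxes printed above, Rfx5 was at 19.5, 21.5 and 22.3 normalized CPM in the WT and 17.7, 18.3 and 15.4 in the Ifnar1-/- libraries (log2 fold change 0.29, edgeR adjusted p = 0.384), with each WT library higher. Creb1 went the other way, at 52.5, 61.6 and 65.3 against 86.0, 75.2 and 70.2 (log2 fold change -0.37, SE 0.15, edgeR adjusted p = 0.226). The IFN-γ receptor gene Ifngr1 differed by -0.01 on the log2 scale (edgeR adjusted p = 0.975). Il10ra, a receptor chain for IL-10, which lowers class II on monocytes, was at 241, 226 and 235 in WT and 173, 192 and 182 in Ifnar1-/- libraries (log2 fold change 0.36, SE 0.13, edgeR adjusted p = 0.195).

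The MHC class I pathway, which displays peptides from the cytosol and whose genes lie partly in the same region, is the nearest comparison. Of its 16 genes all were tested and edgeR called 1, beside 2.13% of all tested genes: Nlrc5, the class I counterpart of Ciita. The list had 11 genes above and 5 below 0, with a median of 0.16. At an unadjusted p under 0.05 by edgeR there were 6 of the 16, beside 17.8% of all tested genes. The groups did not overlap for 7 of the 16, beside 23.4%, with WT above for 6 and below for 1. Nlrc5 was at 343, 245 and 275 normalized CPM in the WT and 155, 193 and 139 in the Ifnar1-/- libraries, a log2 fold change of 0.83 (SE 0.18, interval 0.43 to 1.23, edgeR adjusted p = 0.0466). All WT libraries were higher, but the call was lost when WT library 1, WT library 3, Ifnar1-/- library 1 or Ifnar1-/- library 3 was left out. It was also lost without both libraries numbered 3, with the replicate number as a block, and with GC and length offsets. The call was kept with this block and these offsets together, and with DESeq2, limma-voom and the other filters. H2-K1, a class I heavy chain, was at 2028, 1841 and 1685 against 926, 1218 and 1185 (log2 fold change 0.74, SE 0.18, edgeR adjusted p = 0.0664), and B2m, the light chain, at 2230, 2112 and 1825 against 1001, 1556 and 1284 (log2 fold change 0.68, SE 0.20, edgeR adjusted p = 0.118). DESeq2 called 5 of the 16, beside 1.97% of all genes with a count: H2-K1, H2-D1, B2m, Tapbp and Nlrc5, all higher in WT.

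**Figure D4:**
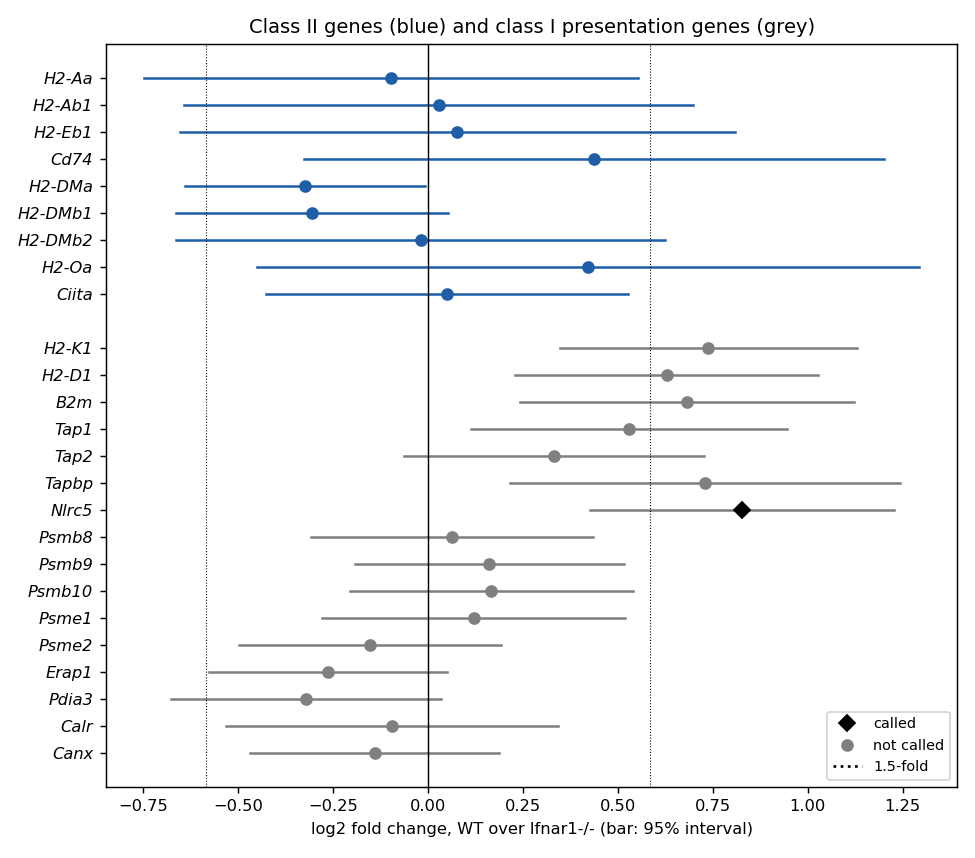
Log2 fold change (WT over Ifnar1-/-) with its 95% interval for the 9 tested class II genes (blue) and the 16 class I presentation genes (grey), with dotted lines at 1.5-fold. Nlrc5 alone passes the test (black diamond), and the interval covers 0 for every class II gene other than H2-DMa.

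A called gene in one list and none in the other does not show that the lists differ, so ratios of class I to class II were compared within libraries, with genes picked after their values were seen. The TPM of H2-K1, H2-D1 and B2m over that of the class II chains was 3.54, 3.55 and 1.94 in the WT and 2.42, 2.14 and 1.27 in the Ifnar1-/- libraries. The WT ratio was 1.55-fold that of Ifnar1-/- cells, but WT library 3 fell below Ifnar1-/- libraries 1 and 2 (two-sided exact permutation test, p = 0.3). The ratio of Nlrc5 to Ciita was 6.23, 3.50 and 5.56 against 4.09, 2.54 and 3.76 (1.46-fold, exact permutation p = 0.3), again with overlap. Since an exact permutation of 3 against 3 libraries cannot go below p = 0.1, these tests could not have passed 0.05, and they do not settle whether class I and class II differed in response to the receptor genotype. The ratio of H2-DM to the chains was 0.746-fold in WT (0.103, 0.126 and 0.0753 against 0.179, 0.149 and 0.0890, exact permutation p = 0.3), and that of H2-Aa to H2-Ab1 was 0.930-fold (exact permutation p = 0.4).

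In the genome, 8 of the 10 genes lie in the class II region of chromosome 17, over 224.3 kb from the start of H2-Oa to the end of H2-Eb1, with Cd74 and Ciita on other chromosomes. Between the H2-DM genes and H2-Ob lie Psmb9, Tap1, Psmb8 and Tap2, which serve class I loading. Tap1, a subunit of the peptide transporter, was at 436, 594 and 459 normalized CPM in the WT and 287, 414 and 331 in the Ifnar1-/- libraries (log2 fold change 0.53, SE 0.19, edgeR adjusted p = 0.178). Of 13 neighbouring genes, 10 were tested and 0 were called by edgeR, beside 2.13% of all tested genes (3 at an unadjusted p under 0.05, beside 17.8%), 9 of them above 0, with a median of 0.18. The neighbours include H2-K1, Tap1, Tap2, Psmb8 and Psmb9 of the class I list, so they are not independent of that list. Those at an unadjusted p under 0.05 were H2-K1, Tap1 and Brd2.

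**Figure D5:**
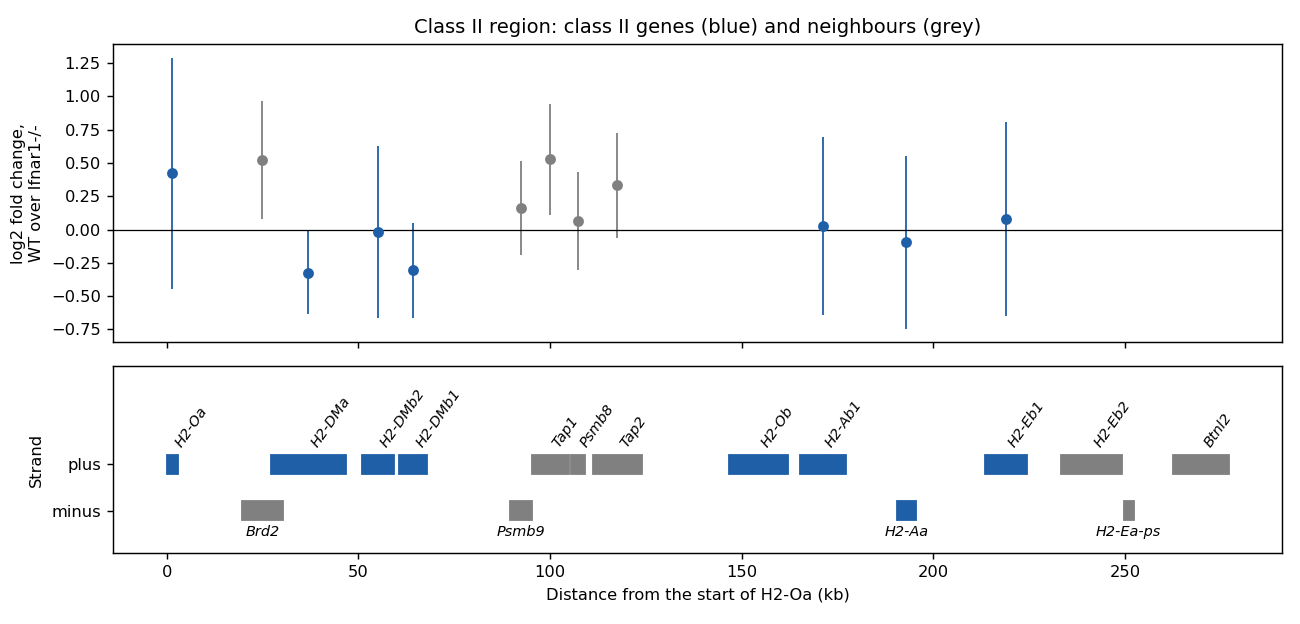
The class II region of chromosome 17, drawn to scale in kb from the start of H2-Oa, with genes by strand below and their log2 fold change (WT over Ifnar1-/-) with 95% interval above. Class II genes are blue, class I loading genes and other neighbours are grey, and the interval covers 0 for every tested class II gene shown other than H2-DMa.

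By the profile over libraries, the genes outside the 10 that were most like the chains and Cd74 (Pearson's r of log2 normalized CPM with their mean, 6 libraries, 11245 genes ranked) were Nfia (0.986), Ddx51 (0.984), Cybb (0.980), 1700055D18Rik (0.975) and Agap1 (0.974). Cybb, a subunit of the phagocyte NADPH oxidase, was at 1311, 1228 and 1565 normalized CPM in the WT and 1104, 1387 and 1523 in the Ifnar1-/- libraries. With 6 libraries and so many genes, likeness of this size is a description of these libraries only.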

How the data were processed

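RNA of 6 sorted monocyte samples was sequenced as 75 bp paired-end reads. The submitters' processing notes name STAR 2.6.0c, RSEM 1.2.31 and GRCm38. The deposited files hold, for each gene, an expected count, which the authors estimated with RSEM and did not normalize, and a TPM value, which the authors scaled per length and per library. The FPKM values the authors also deposited were not used. The labels and the methods name different library kits, and the strand setting for counting is not given in the sources used here. RSEM divides reads among similar genes, so H2-DMb1 and H2-DMb2 were also summed.

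Expected counts were rounded to whole numbers. WT and Ifnar1-/- libraries, grouped by the labels, which call the 3 libraries of a genotype replicates, were compared with edgeR 4.0.16 in R 4.3.3 (TMM, filterByExpr with a minimum count of 10, quasi-likelihood test, Benjamini-Hochberg adjustment over all tested genes), and genes were called at an adjusted p no higher than 0.05 with at least a 1.5-fold change. SE was the log2 fold change over the square root of F, and 95% intervals used the total degrees of freedom. Normalized CPM is the count scaled by the TMM-adjusted library size (CPM), to which 0.5 was added for log2 values. TPM was used to compare genes and for ratios within a library. Ratios were tested by exact permutation of 3 against 3 libraries. Alternatives were DESeq2 1.42.0, limma-voom (limma 3.58.1), other filters and normalizations, corrections for GC content and length, the replicate number as a block, and leaving out libraries. The names of the deposited files carry a number that differs among the libraries of a genotype and recurs in the other, and its meaning is not given, so replicates may differ in a way the labels do not state. Floors of 3 counts cover counting error only. Gene positions came from GENCODE release M21, which matched 54165 of 54232 identifiers, and promoters from RefSeq.

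The class II genes and all lists were chosen with earlier results of these data known. Genes named with values were all 10 members, called genes of the lists and those with a stated role, the first 3 markers of each cell type, and the 5 genes with the most similar profile. Further markers and class I and turnover genes given with values were chosen after their values were seen. Some genes on these lists, and the summed level of the microglia list, are not reported here.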

Additional observations from a re-analysis of the deposited data

How the results depend on the processing

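Class II genes called stayed at 0 in all 17 alternative settings, including DESeq2, limma-voom, no low-count filter and each library left out. H2-DMa, H2-DMb1, H2-Oa, Cd74, the 2 H2-DMb copies summed and both planned ratios kept their direction throughout. The others lie near 0 and changed sign: H2-DMb2 to 0.0624 with limma-voom, 0.0419 with the replicate block, 0.004 with GC and length offsets and 0.0602 with both, H2-Ab1 to -0.11 with GC and length offsets and -0.0825 with the block added, Ciita to -0.21 and -0.18 in the same settings, and H2-Aa to 0.0498 with GC and length offsets and the replicate block. Leaving out 1 library gave log2 fold changes of -0.34 to 0.29 for H2-Aa, -0.22 to 0.39 for H2-Ab1, -0.20 to 0.52 for H2-Eb1, -0.20 to 0.39 for H2-DMb2 and -0.15 to 0.32 for Ciita. Without Ifnar1-/- library 1, H2-Ab1 was at -0.21, H2-Eb1 at -0.20 and Ciita at -0.15. Without both libraries numbered 3, a setting chosen after seeing the data, H2-Aa was at 0.06.

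Over all genes, 240 were called, against 419 by DESeq2, 872 without a low-count filter, 119 to 245 with 1 library left out (148 without WT library 3, 119 without Ifnar1-/- library 1 and 120 without Ifnar1-/- library 3) and 95 without both libraries numbered 3. The share of calls higher in WT was 78.3%, and 70% to 95.3% over the alternatives. Processing and transcription genes called went from 0 to 2 with DESeq2 and 1 without the filter. Class I genes called went from 1 to 5 with DESeq2, 4 without the filter and 2 with limma-voom. They went to 0 with the replicate block and 0 with GC and length offsets, but stayed at 1 with both together. With 1 library left out there were 0 to 2, and without both libraries numbered 3 there were 0. The cause of these shifts was not tested. As to pairing, group means were first removed. WT and Ifnar1-/- libraries of equal number then correlated at 0.0873, 0.0265 and 0.289 over tested genes. WT libraries 2 and 3 correlated best with their own number, whereas WT library 1 correlated best with Ifnar1-/- library 2 (0.101). Of the Ifnar1-/- libraries, 1 and 3 correlated best with their own number, and library 2 with WT library 1. As not every value between libraries of equal number was over 0.1 and no source ties the numbers to animals, the numbers were not taken as pairs. With the replicate block 220 genes were called, and the planned ratios, whose mean difference the block cannot change (0.71 on the log2 scale for H2-O to H2-DM), had an exact sign-flip p of 0.5. Between libraries of equal number, a comparison chosen after seeing the data, WT over Ifnar1-/- was 1.46, 1.66 and 1.53-fold for class I to class II chains, 1.52, 1.38 and 1.48-fold for Nlrc5 to Ciita and 0.579, 0.847 and 0.847-fold for H2-DM to chains, each in one direction (exact sign-flip p = 0.25, the smallest 3 pairs give). Intervals were computed for the main fit alone, which has no block. There, with 3 libraries a group, a level 1.5-fold lower in WT lies inside the intervals of all 3 chains. A level 1.5-fold higher lies inside those of H2-Ab1, H2-Eb1 and Cd74. With the block, the SE fell from 0.29 to 0.18 for H2-Aa, 0.30 to 0.20 for H2-Ab1 and 0.33 to 0.23 for H2-Eb1. For Cd74 it rose from 0.34 to 0.36. The bounds may therefore differ with the block, and the counts of H2-O limit any statement on H2-O.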
